A study of Mus musculus with 10 samples.

Results

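The genes described are 10 markers of astrocytes: Gfap, Aqp4, Aldh1l1, Slc1a2, Slc1a3, Gja1, Gjb6, S100b, Fgfr3 and Aldoc. They were picked by gene symbol from the 52636 genes of a mouse cortex RNA sequencing table, and all 10 were among the 18455 genes with enough counts to be tested. The tissue was S1BF, the whisker barrel field of primary somatosensory cortex, of C57BL/6 mice at postnatal day 17. Loxp (n = 4) carried the floxed Rxra allele Rxratm1Krc/J without a Cre. Hetero (n = 2) carried Nex-cre with 1 conditional Rxra allele deleted (cKO-Het), and cKO (n = 4) carried Nex-cre with the full conditional deletion, so all 3 groups share the floxed allele. Rxra encodes retinoid X receptor alpha, a nuclear receptor that pairs with many others. Nex-cre places Cre in the Neurod6 locus and thereby in cortical excitatory neurons, and astrocytes are not among its known targets. Whether every library is a separate animal is not in the labels, so the p-values describe only how far these samples spread.

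Astrocytes are glial cells that clear glutamate and potassium from around synapses, pass ions and metabolites to each other through gap junctions, and wrap blood vessels with end-feet. In the rodent cortex they multiply and mature over the first postnatal weeks, while synapses form. The genes divide by role. Slc1a2 (GLT-1) and Slc1a3 (GLAST) encode the glial glutamate transporters, and Gja1 (connexin 43) and Gjb6 (connexin 30) the gap junction proteins of astrocytes. Aqp4 encodes the water channel of the end-feet and Gfap an intermediate filament. Aldh1l1 and Aldoc encode enzymes of folate metabolism and glycolysis. S100b encodes a calcium-binding protein that cells of the oligodendrocyte lineage also make, and Fgfr3 a receptor of fibroblast growth factors.

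The results below turn on Gja1 and Gjb6, whose ratio ran from 1.80 to 4.24 over the libraries, on S100b, which had the smallest p-value of the 10, and on Gfap, whose window holds the nuclear receptor motif AGGTCA. Their promoters are printed for these reasons, as the 250 bases before the RefSeq start (GRCm38.p6). RefSeq windows were read for 9 of the 10 genes, 11 windows in all. Aqp4 was left out, so the motif counts say nothing about its promoter. Each is printed 5′ to 3′ on the gene's strand, and capitals mark AGGTCA or its reverse complement TGACCT, and TTGGCA or its reverse complement TGCCAA, the core bound by NFI factors of the glial lineage. Gja1 (ENSMUSG00000050953) and S100b (ENSMUSG00000033208) lie on chromosome 10, Gjb6 (ENSMUSG00000040055) on chromosome 14 and Gfap (ENSMUSG00000020932) on chromosome 11. In GENCODE M21 the window of Gfap lies inside the annotated gene (102887336 to 102900912), since that annotation has a transcript that starts further upstream. The windows lie at chr11:102897201-102897450 (Gfap, minus strand), chr10:56377050-56377299 (Gja1, plus strand), chr14:57133612-57133861 (Gjb6, minus strand) and chr10:76253586-76253835 (S100b, plus strand).
Gfap: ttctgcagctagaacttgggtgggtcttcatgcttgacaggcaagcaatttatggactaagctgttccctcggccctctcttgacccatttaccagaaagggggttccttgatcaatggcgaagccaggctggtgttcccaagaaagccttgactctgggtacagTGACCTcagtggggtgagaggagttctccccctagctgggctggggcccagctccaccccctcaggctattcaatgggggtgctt
Gja1: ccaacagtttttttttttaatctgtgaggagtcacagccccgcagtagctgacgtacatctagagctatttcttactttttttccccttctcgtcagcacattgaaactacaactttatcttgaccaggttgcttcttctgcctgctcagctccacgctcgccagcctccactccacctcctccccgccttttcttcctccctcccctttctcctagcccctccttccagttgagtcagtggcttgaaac
Gjb6: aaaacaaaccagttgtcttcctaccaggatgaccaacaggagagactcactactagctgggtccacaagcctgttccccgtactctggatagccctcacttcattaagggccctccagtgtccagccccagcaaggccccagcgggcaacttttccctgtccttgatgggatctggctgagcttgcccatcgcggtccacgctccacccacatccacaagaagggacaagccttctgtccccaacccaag
S100b: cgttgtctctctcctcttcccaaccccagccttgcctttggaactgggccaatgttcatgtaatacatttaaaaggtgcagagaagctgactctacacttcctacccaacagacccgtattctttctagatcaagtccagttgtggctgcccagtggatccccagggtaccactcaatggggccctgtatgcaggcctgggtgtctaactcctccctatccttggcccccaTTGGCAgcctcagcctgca
The motif AGGTCA was found on either strand in 2 of the 11 windows, 85 bases before the start of Gfap and 178 before that of Aldh1l1. Of 32851 mouse windows of the same length, 14% hold it. TTGGCA was found in 2 of the 11, 19 bases before the start of S100b and 146 before that of Aldoc, against 12.3% of all windows. ACAATG or CATTGT, the core bound by SOX factors, was found in none of the 11 (10.7% of all windows). TATAAA or TTTATA was found in 1, that of Slc1a3, 161 bases before the start (12.4% of all windows). These motifs do not overlap each other in these windows, and a match is a description of the letters only. Like that of Gfap, the windows of Aldh1l1 and Slc1a2 lie inside the genes as annotated in GENCODE M21. Those of Fgfr3 and Aldoc do so in whole or in part.

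Library totals were 19332990 to 26086337 counts, and the astrocyte genes were well covered: the lowest count of any of them in any library was 965, for S100b. Rxra itself was not lower in cKO, at 24.5, 21.6, 28.3 and 31.8 CPM (counts scaled by library total) in Loxp, 29.0, 32.4, 29.3 and 32.0 in cKO, and 23.2 and 26.4 in Hetero. The counts cover the whole gene, so they do not check the deleted exon. Neurod6, which holds the Cre, was at 66.7, 55.7 and 61.9 CPM in Loxp 1 to 3, at 34.0 and 34.4 in Hetero and at 22.9 to 38.1 in cKO. The library labelled Loxp 4 had 34.9, within the range of the Cre groups, so values of the 10 genes against Loxp are also given without it where their direction changes. Hetero 2 had 747 CPM in summed choroid plexus markers, against 3.59 to 23.4 in the other libraries, and cKO 2 stood apart in several marker sums, given with the results it moves with. In bulk tissue, fewer astrocytes and less RNA per astrocyte cannot be told apart. Astrocytes were present in all libraries by these markers, none of which was at 0 in any library.

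In Loxp, Slc1a2 and Aldoc had the highest levels per gene length and Aqp4 the lowest. On the authors' FPKM scale (counts scaled by gene length and library total), Slc1a2 was at 237.7 ± 39.5 and Aldoc at 220.5 ± 8.79 (SD, n = 4), and the ranges of these 2 overlapped. Slc1a3 followed at 61.1 ± 3.53 and S100b at 42.2 ± 2.32, each apart from its neighbours. Gfap (31.5 ± 1.87) and Gjb6 (27.6 ± 2.72) overlapped, and so did, in turn, Fgfr3 (19.7 ± 1.69), Aldh1l1 (17.7 ± 1.28), Gja1 (16.5 ± 1.64) and Aqp4 (14.3 ± 3.11). The gene lengths implied by counts and FPKM ran from 1492 bases for S100b to 13205 for Slc1a2, so a gene's place by raw counts differs from its place by FPKM. Within groups, Aqp4 and Gjb6 were the most variable of the 10 and Aldoc the steadiest. Their SDs within groups were 0.29, 0.24 and 0.07 on the log2 CPM scale. Among 6225 genes with a mean log2 CPM over 5, these SDs stood at the 95.6th, 92.1st and 6.27th percentile.

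Set beside the genes of their own families shown here, Gfap, Slc1a2, Aqp4, Fgfr3, Gjb6 and Aldh1l1 had the highest mean FPKM in Loxp. Gjb6 at 27.6 FPKM and Gja1 at 16.5 stood above Gjc3 (11.9 ± 1.14), a connexin of oligodendrocytes, while Gjb1, Gjd2, Gja4, Gjc1, Gjb2 and Gja5 lay between 0.127 and 5.33. Slc1a2 and Slc1a3 were above the neuronal glutamate transporter Slc1a1 (12.5 ± 0.79) and the neutral amino acid transporter Slc1a4 (14.7 ± 1.53). Fgfr3 was above Fgfr1 (4.93 ± 0.70) and Fgfr2 (3.02 ± 0.29), and Aqp4 above Aqp11 (1.75 ± 0.19). Aldoc was below the ubiquitous aldolase Aldoa (308.9 ± 49.8), whose symbol has 2 entries in the table and whose value, from the larger one, is uncertain. S100a1 was at 48.6 ± 3.71, with a range that overlapped that of S100b. Gfap was above the other glial filament genes Vim (5.80 ± 1.12), Synm (4.89 ± 0.72) and Nes (2.87 ± 0.87).

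**Figure D1:**
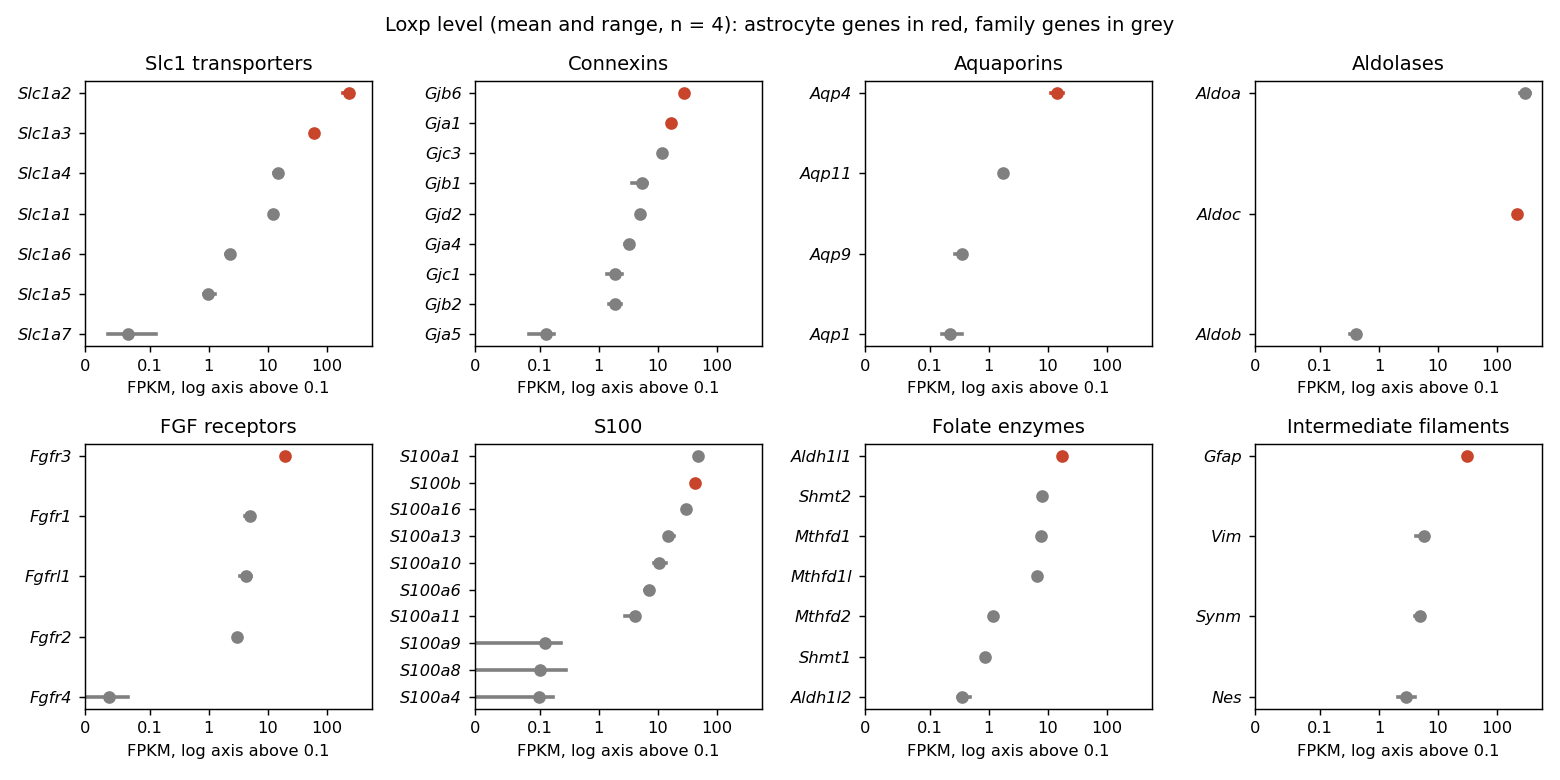
FPKM in Loxp of the astrocyte genes (red) and of some other genes of their families (grey), 1 panel per family, on an axis that is linear below 0.1 and logarithmic above. Points are means of 4 libraries and lines run from the lowest to the highest, and Gfap, Slc1a2, Aqp4 and Fgfr3 are the highest of their panels while Aldoc lies below Aldoa.

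The first comparison, cKO against Loxp, asks whether full deletion of Rxra in excitatory neurons comes with a change in astrocyte transcripts. None of the 10 genes passed an edgeR adjusted p under 0.05, and 0% of all tested genes did (0 of 18455). At an unadjusted p under 0.05 there were 0 of the 10, and DESeq2 and limma-voom also gave 0 adjusted and 0 unadjusted. The median log2 fold change of the 10 was 0.002, beside 0.0003 over all tested genes, and −0.006 without Loxp 4. Of the 10, 5 had a value above 0 and 5 below, where 50.1% of all genes were above 0. Slc1a2, at −0.001, was above 0 under every other scaling or test tried, which makes the split 6 and 4 there. Without 1 library at a time, from 2 (without cKO 2) to 7 (without cKO 4) of the 10 were above 0, with 3 without Loxp 4, and without cKO 4 there was 1 gene with an unadjusted p under 0.05. For none of the 10 were the ranges of the groups apart, against 1.54% of all genes. The 95% intervals (unadjusted) of the 10 together ran from −0.37 (Gjb6) to 0.41 (Aqp4) on the log2 scale, which is the size of difference these libraries leave possible.

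Slc1a2, which takes up most of the glutamate released in the forebrain, was at 2507, 3790.0, 3202 and 3077 CPM in Loxp 1 to 4, 3015 and 3000.0 in the Hetero pair, and 3182, 3181, 3159 and 3044 in cKO. The cKO libraries all lay inside the wide Loxp range, and both Hetero libraries below every cKO library. Against Loxp, the cKO log2 fold change was −0.001 (SE 0.105, edgeR adjusted p = 1). Slc1a3, the transporter of immature and mature astrocytes and of radial glia, was at 511, 572, 517 and 503 CPM in Loxp, 495 and 486 in the Hetero pair, and 531, 717, 500 and 490 in cKO. A single library, cKO 2, was far above the rest, and the other cKO libraries overlapped Loxp. In cKO it had a log2 fold change of 0.09 (SE 0.111), with an edgeR adjusted p of 1, and −0.05 without cKO 2.

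Gja1, the main connexin of astrocytes, was at 167, 195, 166 and 154 CPM in Loxp, 156 and 165 in the Hetero pair, and 165, 232, 172 and 172 in cKO. Again cKO 2 was the highest, with Loxp 2 next, and the groups overlapped. Its log2 fold change of 0.12 (SE 0.112), with an edgeR adjusted p of 1, was the largest of the 10 in cKO and became −0.006 without cKO 2. Gjb6, the partner connexin that appears later in development, was at 77.1, 71.7, 66.0 and 82.4 CPM in Loxp, 57.0 and 58.0 in the Hetero pair, and 62.3, 54.8, 70.5 and 95.9 in cKO. The cKO libraries held both the lowest (cKO 2) and the highest (cKO 4) value of all 10. The log2 fold change in cKO was −0.07 (SE 0.141, edgeR adjusted p = 1), 0.04 without cKO 2 and −0.25 without cKO 4.

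Aqp4 was at 58.9, 94.0, 77.2 and 62.2 CPM in Loxp, 75.7 and 70.6 in the Hetero pair, and 75.0, 99.7, 71.8 and 58.6 in cKO. Each of Loxp and cKO spread over more than the distance between their means, with the second library of each the highest. The log2 fold change of Aqp4 was 0.06 in cKO (SE 0.162) and 0.00 (0.001, SE 0.199) in Hetero, both with an edgeR adjusted p of 1. The cKO value was −0.09 without cKO 2 and −0.002 without Loxp 4, and the Hetero value −0.06 without Loxp 4. Gfap, whose RNA is higher in reactive astrocytes than in resting ones, was at 140.0, 136, 138 and 122 CPM in Loxp, 137 and 116 in the Hetero pair, and 136, 149, 124 and 113 in cKO. All 3 groups overlapped, and the log2 fold changes against Loxp were −0.04 in cKO (SE 0.0947) and −0.08 in Hetero (SE 0.116), both with an edgeR adjusted p of 1.

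Aldh1l1, a folate enzyme used as a general astrocyte marker, was at 81.9, 88.0, 74.8 and 76.7 CPM in Loxp, 76.9 and 73.6 in the Hetero pair, and 75.5, 92.5, 72.8 and 81.7 in cKO. The groups overlapped throughout, with cKO 2 the highest. For Aldh1l1 the log2 fold change was 0.01 in cKO (SE 0.0881) and −0.09 in Hetero (SE 0.109), both with an edgeR adjusted p of 1. The cKO value was −0.06 without cKO 2 and −0.01 without Loxp 4. Aldoc, the brain aldolase, was at 746, 686, 723 and 743 CPM in Loxp, 644 and 665 in the Hetero pair, and 698, 791, 725 and 774 in cKO. Both Hetero libraries lay below all 8 others, and Loxp and cKO overlapped. Its log2 fold change was 0.04 in cKO (SE 0.0716) and −0.15 in Hetero (SE 0.0882), both with an edgeR adjusted p of 1.

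S100b was at 63.5, 67.4, 58.9 and 62.7 CPM in Loxp, 49.3 and 53.9 in the Hetero pair, and 61.3, 53.1, 63.2 and 61.9 in cKO. The 2 Hetero libraries were below every Loxp library, and cKO 2 alone among the cKO libraries reached down to them. Its log2 fold change was −0.08 in cKO (SE 0.0799, edgeR adjusted p = 1). Fgfr3 was at 135, 141, 133 and 159 CPM in Loxp, 105 and 123 in the Hetero pair, and 125, 130.2, 125 and 159 in cKO. Hetero 1 was the lowest of all libraries, both Hetero libraries lay below all others, and Loxp 4 and cKO 4 were the highest. Its log2 fold change was −0.08 in cKO (SE 0.0976, edgeR adjusted p = 1). Exact two-sided permutation tests of log2 CPM, 4 against 4, gave p from 0.343 (S100b) to 1 (Aldh1l1) over the 10 genes, where the smallest p the design allows is 0.0286.

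**Figure D2:**
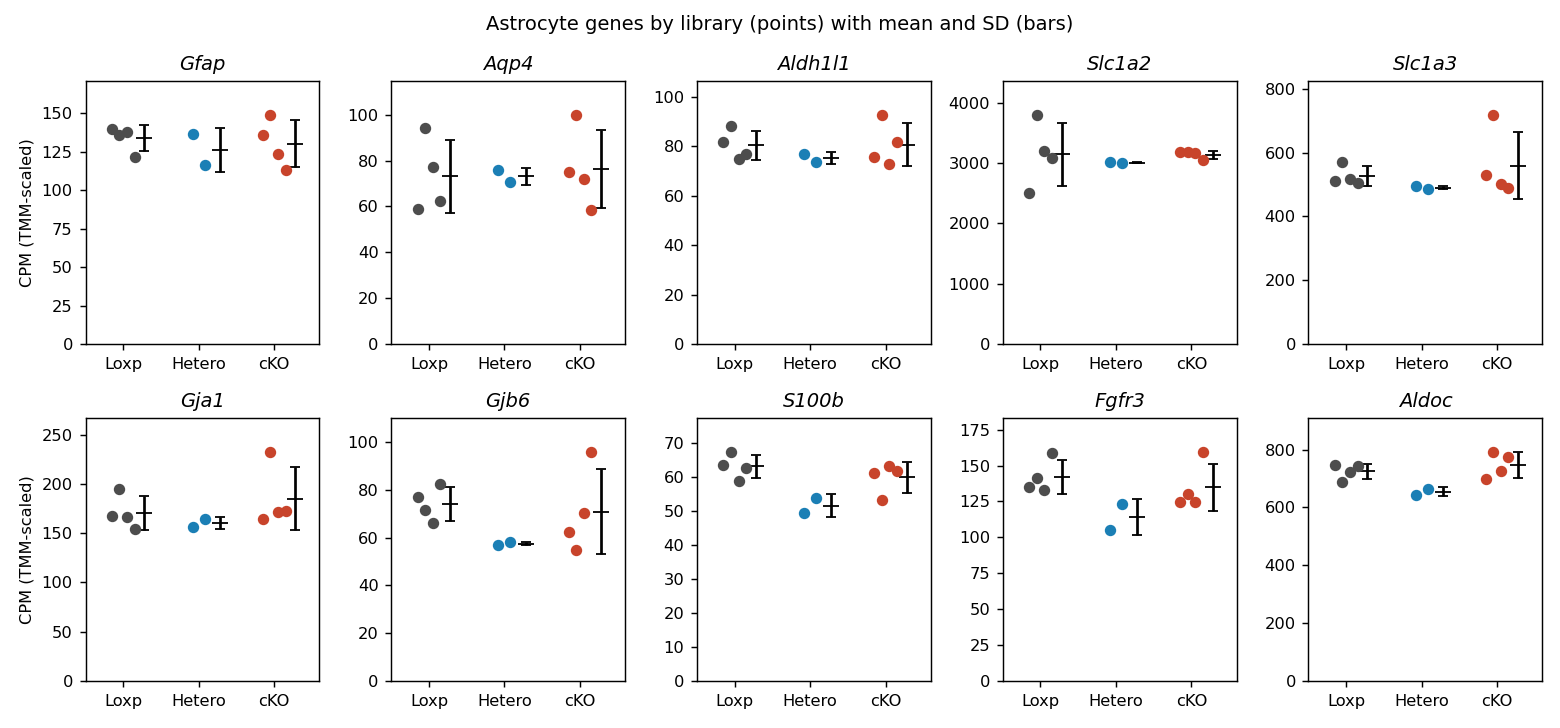
CPM of each astrocyte gene in each of the 10 libraries, 1 panel per gene, with points for libraries and bars for the mean and SD of each group. Loxp and cKO points overlap in all 10 panels, while both Hetero points of S100b (49.3 and 53.9) and Gjb6 (57.0 and 58.0) lie below all Loxp points.

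The second comparison, Hetero against Loxp, uses the same Loxp libraries and asks the same of the heterozygous deletion, and here most of the astrocyte genes had values below those of Loxp. Of the 10, 9 had a log2 fold change below 0 (8 to 10 with 1 library left out at a time), beside 51.8% of all tested genes, and the median was −0.10, beside −0.007 over all genes. None passed an edgeR adjusted p under 0.05 (0% of all genes did), and DESeq2 and limma-voom also gave 0. Unadjusted p was under 0.05 with a lower value in 2 of the 10, against 1.25% of all genes. It was so for 3 of the 10 by DESeq2 and 2 by limma-voom. The share of all genes given is that of edgeR, so these last counts have no share of their own to be judged by. In 5 of the 10 (Slc1a3, Gjb6, S100b, Fgfr3 and Aldoc) both Hetero libraries were below all Loxp libraries, against 5.77% of all genes. The 10 genes come from the same libraries and are not independent of each other, so these shares are descriptions.

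Gjb6, S100b and Fgfr3 had the lowest values relative to Loxp. The log2 fold change of Gjb6 was −0.37 (SE 0.176, unadjusted p = 0.0562), 0.775 times the Loxp level. That of Fgfr3 was −0.32 (SE 0.121, unadjusted p = 0.0215), or 0.803 times, and that of S100b was −0.29 (SE 0.0994, unadjusted p = 0.0118), or 0.818 times. All 3 had an edgeR adjusted p of 1. In the authors' deposited table, the log2 fold change of Gjb6 in Hetero was −0.37, with a p of 0.00251 and an adjusted p of 0.801, and the adjusted p of the other 9 genes was 1. The remaining values lay closer to 0: −0.10 for Slc1a3, −0.09 for Gja1 and −0.06 for Slc1a2. With 2 Hetero and 4 Loxp libraries, an exact two-sided permutation test cannot give a p below 0.133, which the 5 genes with separate ranges reached. Leaving out 1 library at a time, the value ran from −0.42 to −0.31 for Gjb6, from −0.35 to −0.22 for S100b and from −0.43 to −0.205 for Fgfr3, the last from without Hetero 2 to without Hetero 1. Without Hetero 1, S100b was at −0.22 and Fgfr3 at −0.205, and without Hetero 2 they were at −0.35 and −0.43. Without Loxp 4, whose Neurod6 was within the range of the Cre groups, 1 of the 10 (S100b) had an unadjusted p under 0.05. All 10 were below 0 there, with Gjb6 at −0.31, S100b at −0.28 and Fgfr3 at −0.25. Loxp 4 held the highest Loxp value of Gjb6 (82.4 CPM) and of Fgfr3 (159 CPM). Hetero 2 is the library with choroid plexus transcripts, and their part in the Hetero values was not tested.

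Beside these values, the summed markers of microglia and meningeal fibroblasts stood outside the Loxp range in both Hetero libraries. So did those of choroid plexus, at 8.2 and 747 CPM in Hetero 1 and 2 and at 3.59 to 7.63 in Loxp. The 10 microglia markers summed to 311 CPM in both Hetero libraries and to 331 to 369 in Loxp, and 9 of the 10 had a log2 fold change below 0 (median −0.16). Meningeal fibroblast markers, 7 genes, summed to 171 and 199 CPM in Hetero and to 121 to 151 in Loxp, and 5 of the 7 were above 0 (median 0.25). Oligodendrocyte markers summed to 9715 and 6664 CPM in Hetero and to 8669 to 10990.0 in Loxp, so that only Hetero 2 lay outside. All 10 of these genes were below 0 in Hetero (median −0.23), and all 10 were so in cKO against Loxp too (median −0.19). None of these genes passed the test, and the part of these cell types in the astrocyte values was not tested. The 10 astrocyte genes together summed to 4812 CPM in both Hetero libraries, inside the Loxp range of 4487 to 5842, a sum in which Slc1a2 alone is the larger share. A wider list of 31 other astrocyte genes, described below, summed to 9783 and 10070 CPM in Hetero, under the Loxp range of 10500 to 11210.

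**Figure D3:**
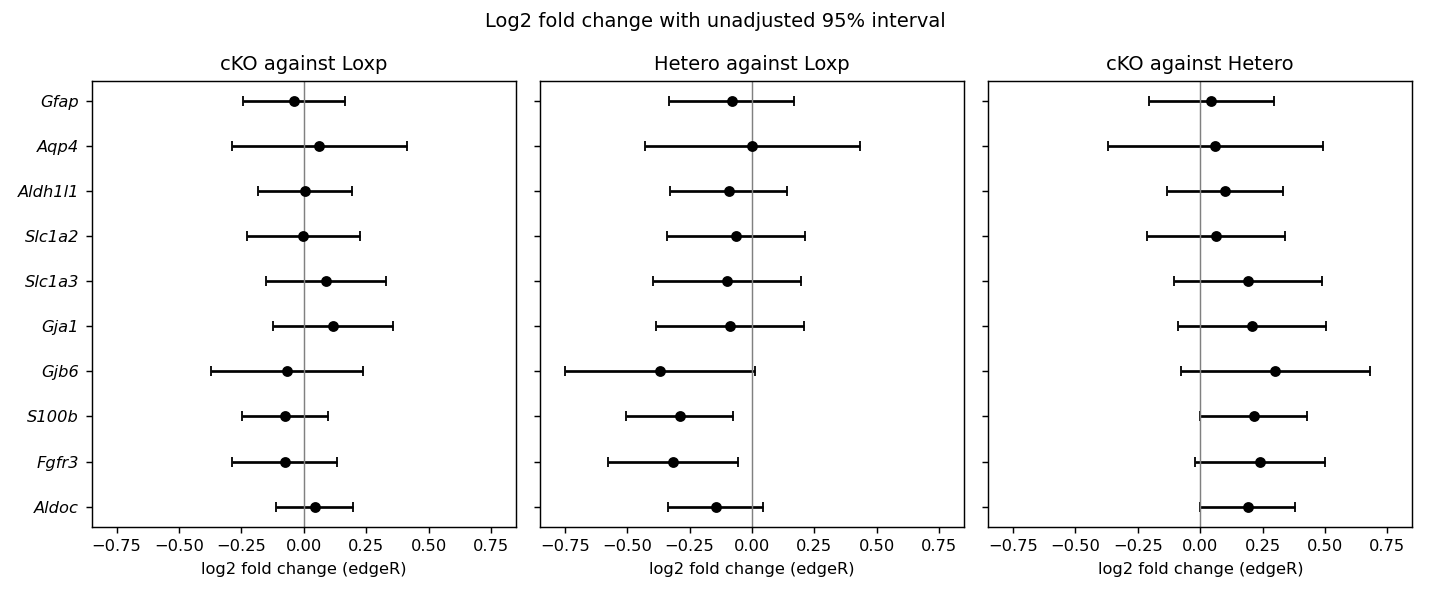
The edgeR log2 fold change of each astrocyte gene in the 3 comparisons, with its unadjusted 95% interval (horizontal lines). In cKO against Loxp all 10 intervals cross 0, in Hetero against Loxp those of S100b and Fgfr3 lie below 0, and in cKO against Hetero all 10 points lie above 0.

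The comparison of cKO with Hetero, which share Nex-cre and differ in the number of Rxra alleles deleted, uses the same 2 Hetero libraries, so it is not separate evidence from the comparison before. All 10 genes had a log2 fold change above 0, beside 52.5% of all tested genes, and the median was 0.19, beside 0.008 over all genes. None passed an edgeR adjusted p under 0.05 (0% of all genes did). The unadjusted edgeR p was under 0.05 for 1 gene, S100b (0.21, SE 0.0991, exact permutation p = 0.267), against 0.975% of all genes higher. By DESeq2 it was 2 genes and by limma-voom 1, with 0 adjusted in each, and the share over all genes is given for edgeR only. In 4 of the 10 (Slc1a2, Gja1, Fgfr3 and Aldoc) all cKO libraries were above both Hetero libraries, against 4.9% of all genes, though for Gja1 the nearest values were 164.6 and 164.5 CPM. Gjb6 was at 0.30 (SE 0.176, edgeR adjusted p = 1), the highest of the 10 with all libraries, but at 0.12 without cKO 4, where Slc1a3 (0.24) was the highest. Fgfr3 was at 0.24 (SE 0.121), Gja1 at 0.21 (SE 0.138) and Aldoc at 0.19 (SE 0.0884), each with an edgeR adjusted p of 1. The median rests in part on cKO 2: without it the median was 0.07 and 8 of the 10 were above 0. Markers of microglia (10 of 10) and oligodendrocyte precursors (7 of 7) were also all above 0, with medians of 0.19 and 0.21. For 6 of the 10 microglia markers, all cKO libraries were above both Hetero libraries. Of oligodendrocyte markers 7 of 10 were above 0 (median 0.02), and of meningeal fibroblast markers 0 of 7 (median −0.33). The part of these cell types in the astrocyte values was not tested.

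Across libraries the 10 genes did not move as 1 block. In cKO 2, 6 of them (Gfap, Aqp4, Aldh1l1, Slc1a3, Gja1 and Aldoc) had their highest value of all 10 libraries, while Gjb6 had its lowest. Of all tested genes, 20% had their highest value in cKO 2 and 19.1% their lowest, the largest such shares of any library. Relative to the Loxp mean, Aqp4, Slc1a3 and Gja1 stood at 0.47, 0.45 and 0.45 in cKO 2 on the log2 scale, Gjb6 at −0.43 and S100b at −0.25. In cKO 4 the order was turned, with Gjb6 at 0.37 and Fgfr3 at 0.17, while Aqp4 was at −0.29 and Gfap at −0.24. In Loxp 2, Aqp4 was at 0.39 and Gja1 at 0.20, also above the Loxp mean, while Slc1a2 was at 0.28 there and at 0.03 in cKO 2.

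The ratio of the astrocyte connexins shows this most plainly. Gja1 over Gjb6, in CPM, was 2.17, 2.72, 2.52 and 1.87 in Loxp 1 to 4, 2.74 and 2.83 in the Hetero pair, and 2.64, 4.24, 2.43 and 1.80 in cKO 1 to 4. The cKO group thus held both the lowest and the highest ratio, and replicate 4 had the lowest ratio of its group in both Loxp and cKO. Slc1a3 over S100b was 13.5 in cKO 2 and 7.91 to 10.04 elsewhere, and Slc1a3 over Slc1a2 was 0.225 in cKO 2 and 0.151 to 0.204 elsewhere. Gfap over Aldh1l1 was lowest in cKO 4, at 1.38, and 1.54 to 1.85 in the others.

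**Figure D4:**
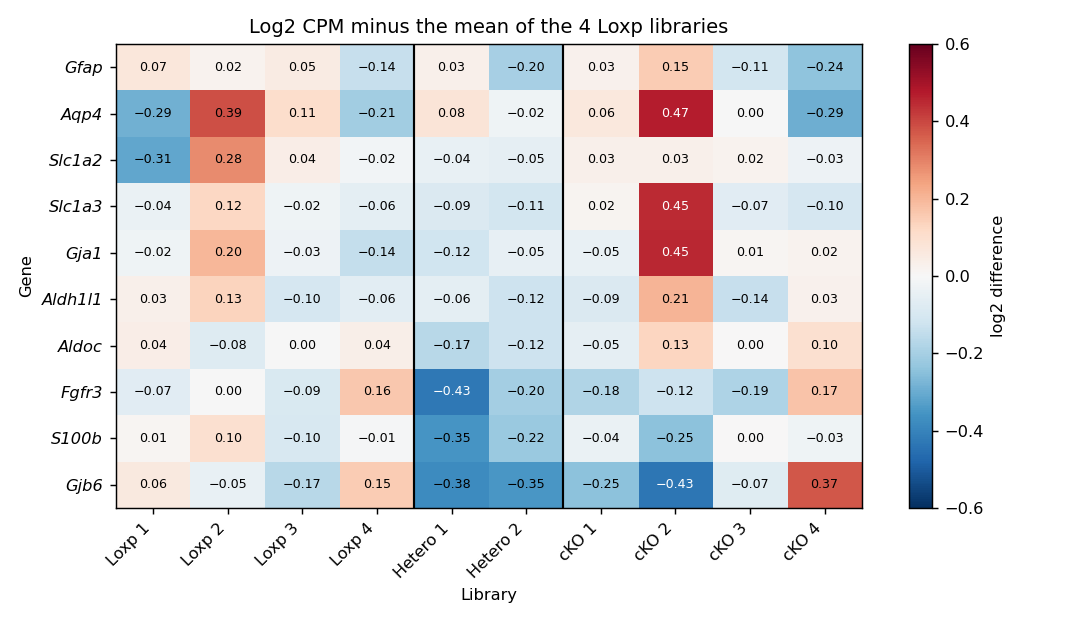
Log2 CPM of each astrocyte gene (rows) in each library (columns) minus the mean of the 4 Loxp libraries, with the value in each cell and red for above and blue for below. The column of cKO 2 holds both the reddest cells (Aqp4 at 0.47) and one of the bluest (Gjb6 at −0.43), and the Hetero columns are blue for Gjb6, S100b and Fgfr3.

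Pairwise correlations over the 10 libraries, which share group differences and library composition, are given as descriptions. Slc1a3 and Gja1 went together most closely (Pearson r = 0.925, Spearman rho = 0.479, r = 0.695 without cKO 2), followed by Aldh1l1 and Gja1 (r = 0.837, rho = 0.527, r = 0.664 without it). Gjb6 went with Fgfr3 (r = 0.821, rho = 0.818, r = 0.89 without cKO 2) and with S100b (r = 0.712, rho = 0.77, r = 0.652 without it), and S100b with Fgfr3 (r = 0.672, rho = 0.588, r = 0.709). Aldoc correlated with Fgfr3 (r = 0.661, rho = 0.6), and without cKO 2 Gjb6 and Aldoc had the highest r of all 45 pairs (r = 0.898, against 0.455 with it). Aqp4 and Gjb6 ran opposite (r = −0.674, rho = −0.685, r = −0.569 without cKO 2). Several other relations rest on cKO 2. Gja1 and Gjb6 had r = −0.279 (rho = 0.0424), which became 0.205 without that library, Gja1 and S100b went from −0.0434 to 0.602, and Slc1a3 and S100b from −0.145 to 0.576.

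The library cKO 2 also stood apart in markers of other cell types. The 7 markers of oligodendrocyte precursors summed to 654 CPM there and to 392 to 476 in the other 9 libraries. Oligodendrocyte markers summed to 6167 CPM, the lowest, with Hetero 2 next at 6664 and the rest at 8656 to 10990.0. Microglia markers summed to 409 CPM against 311 to 369, and meningeal markers to 74.1 against 121 to 199. Markers of inhibitory neurons summed to 680 CPM in cKO 2 and 686 in Loxp 2, against 835 to 1018 in the others. The share of counts on mitochondrial genes was 3.58% in cKO 2 and 3.68% in Loxp 2, against 2.80% to 3.20% in the other 8 libraries. No marker of any list was at 0 in all libraries. The part of these differences in the high Gja1, Slc1a3 and Aqp4 and the low Gjb6 and S100b of cKO 2 was not tested.

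**Figure D5:**
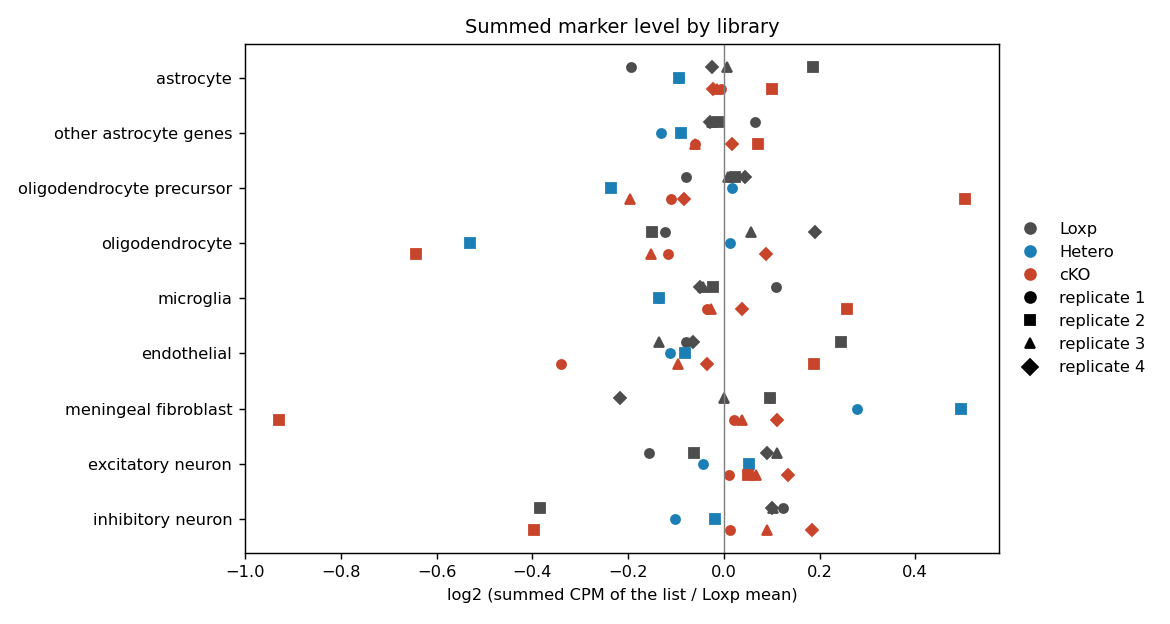
Summed CPM of the markers of each cell type in each library, as log2 of the ratio to the Loxp mean (horizontal axis), with colours for groups and symbols for replicate numbers. Astrocyte sums, of which Slc1a2 alone is the larger share, run from 4487 to 5842 CPM around a Loxp mean of 5132. The library cKO 2 is the highest for oligodendrocyte precursors (654 CPM) and the lowest for meningeal fibroblasts (74.1 CPM). Choroid plexus markers and some other lists are not drawn.

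A wider list of 31 other astrocyte genes was read beside the 10. In cKO against Loxp, 14 were above 0 and 17 below, their median log2 fold change was −0.005, and none had an unadjusted p under 0.05. The 3 with the smallest p were Sox9, a transcription factor of glial cells (0.34, SE 0.18, unadjusted p = 0.0777), Plpp3, a lipid phosphatase (0.16, SE 0.107), and Pla2g7 (−0.12, SE 0.0887), each with an edgeR adjusted p of 1. In Hetero against Loxp, 6 were above 0 and 25 below, with a median of −0.11, and 7 of the 31 had both Hetero libraries below all Loxp libraries, against 5.77% of all genes. Ppp1r3c, a glycogen-targeting subunit of protein phosphatase, was at 26.6 ± 2.80 CPM in Loxp (SD, n = 4) and at 20.7 and 21.3 in Hetero, with a log2 fold change of −0.34 (SE 0.116) and an edgeR adjusted p of 1. Glul, the glutamine synthetase that works on the glutamate taken up by Slc1a2 and Slc1a3, was at 1405 ± 37.6 and 1197 ± 40.2 CPM, with −0.23 as the log2 fold change (SE 0.0874) and an edgeR adjusted p of 1. F3, tissue factor, was at 32.2 ± 4.28 and 25.4 ± 1.23 CPM, with −0.34 as the log2 fold change (SE 0.135) and an edgeR adjusted p of 1. These 3 were the only genes of the list with an unadjusted p under 0.05 in this comparison, at 0.0113, 0.0199 and 0.024, against 1.25% of all genes with a lower value.

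Genes that reactive astrocytes switch on were split between values above and below Loxp. Of 31 listed, 29 were tested, and in cKO against Loxp 14 were above 0 and 15 below, with a median of −0.007. The smallest p was that of Emp1, at 1.30 ± 0.53 CPM in Loxp and 1.91 ± 0.30 in cKO (SD, n = 4 each). In Hetero against Loxp, 16 were above and 13 below, with a median of 0.01, and Cd109, at 0.407 ± 0.13 CPM in Loxp and 0.886 ± 0.55 in Hetero, had an unadjusted p of 0.0401 and an edgeR adjusted p of 1. Vim, the filament that joins Gfap in reactive cells, had a log2 fold change of −0.007 in cKO (SE 0.16) and 0.11 in Hetero (SE 0.196), both with an edgeR adjusted p of 1. Genes of the dystrophin complex that anchors Aqp4 at end-feet, 7 in all, were above 0 in 6 and below in 1 in cKO, and 4 and 3 in Hetero.

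Astrocyte factors for synapse formation and removal, 8 genes, were above 0 in 7 and below in 1 in cKO, with a median of 0.06, and 2 and 6 in Hetero, with a median of −0.13. Gpc4, a glypican that recruits glutamate receptors, was at 9.17 ± 2.14 CPM in Loxp and 11.7 ± 3.69 in cKO, with 0.35 as the log2 fold change (SE 0.215) and an edgeR adjusted p of 1. Thbs2, a thrombospondin, was at 10.4 ± 1.17 CPM in Loxp and 8.23 ± 1.02 in Hetero, with −0.34 as the log2 fold change (SE 0.176) and an edgeR adjusted p of 1. Mertk, a receptor by which astrocytes engulf synapses, was at 43.1 ± 5.75 and 36.5 ± 1.34 CPM, with −0.24 as the log2 fold change (SE 0.133) and an edgeR adjusted p of 1. No gene of any of these lists passed the adjusted threshold in either comparison with Loxp.

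The genes closest in pattern to the astrocyte set were sought by correlation with the mean of the 10 standardised log2 CPM profiles, over the 10 libraries and 12248 other genes with a mean log2 CPM over 2. The 6 highest were Zcchc24 (Pearson r = 0.984), Ndrg2 (0.939), Dcaf11 (0.926), Peli1 (0.921), Scrg1 (0.915) and Wdr41 (0.907), with Spearman rho from 0.685 (Peli1) to 0.964 (Ndrg2 and Wdr41). Without cKO 2 and Loxp 2, the libraries farthest from the median, r was 0.953 for Zcchc24 and 0.857 for Ndrg2, and 0.74 to 0.882 for the other 4. Ndrg2 is itself one of the 31 other astrocyte genes, and it was at 545.8 ± 26.3 CPM in Loxp, 494 ± 0.34 in Hetero and 549 ± 60.1 in cKO.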

How the data were processed

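RNA sequencing of S1BF tissue from 10 mouse samples was used. The authors deposited whole-number read counts per gene, and FPKM per gene and library. The submitters' processing notes name featureCounts 1.5.0-p3 and the build mm10. For the aligner, annotation, strand setting and the gene lengths behind the FPKM, the sources used here give nothing. The authors' deposited table also holds the results of their own tests. The counts were fitted with edgeR 4.0.16 in R 4.3.3 (TMM, filterByExpr, glmQLFit and glmQLFTest, a mean per group over all 10 libraries), with Benjamini-Hochberg adjustment over 18455 genes and a threshold of 0.05. The common biological coefficient of variation was 14.9%. CPM use TMM-scaled totals, and log2 CPM a prior count of 2. Standard errors are the log2 fold change over the root of F. No library pair was a duplicate (chi-square per gene at least 4.89 over 45 pairs). Gene coordinates are from GENCODE M21 and promoter windows from RefSeq. The tests were checked on simulated data. Alternatives were other scalings and filters, only the groups compared, a replicate block, DESeq2 1.42.0, limma-voom (limma 3.58.1) and each library left out in turn. From each list up to 3 genes with the smallest p per comparison with Loxp were named; Ndrg2, Vim and family members were named as well. The genes, lists and tests were chosen with earlier results of these data known. Some genes that this rule names are not reported here.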

Additional observations from a re-analysis of the deposited data

Results flagged for a closer look

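In 3 of the 20 groups of 4 libraries examined (10 genes in Loxp and in cKO), the highest or lowest library lay farther from its neighbour than Dixon's 95% limit for 4 values, a gap of 0.829 of the group's range. Chance flags about 1 group in 20. Gja1 in cKO 2 was at 232 CPM, with a gap of 0.886 of the cKO range. Fgfr3 in cKO 4 was at 159 CPM, with a gap of 0.838. Slc1a2 in cKO 4 was at 3044 CPM, below the other cKO libraries, with a gap of 0.834 of a range that is narrow beside that of Loxp.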

How the results depend on the processing

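No astrocyte gene passed the adjusted threshold under any alternative. Over all tested genes, the number called was 0 in each comparison and became 32, 68 and 39 (cKO against Loxp, Hetero against Loxp, cKO against Hetero) with no low-count filter, and 11 and 3 in the last 2 by DESeq2. With 1 library left out at a time it was 0 to 1, 0 to 15 and 0 to 14. The median of the astrocyte genes in cKO against Hetero was 0.06593 to 0.208 then.

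Values near 0 changed sign. Slc1a2 in cKO against Loxp was 0.001345 with DESeq2 size factors, 0.0003192 with library size alone, 0.005975 with no filter, 0.004493 with at least 1 CPM, 0.003145 with only the groups compared, 0.0004938 by DESeq2 and 0.01391 by limma-voom. Leaving out 1 library, the ranges in cKO against Loxp were −0.1036 to 0.02718 for Gfap, −0.08999 to 0.2056 for Aqp4, −0.06301 to 0.05608 for Aldh1l1, −0.09584 to 0.1009 for Slc1a2, −0.04848 to 0.1507 for Slc1a3, −0.006262 to 0.1885 for Gja1 and −0.2464 to 0.04039 for Gjb6. In Hetero against Loxp they were −0.1991 to 0.03189 for Gfap, −0.08886 to 0.1455 for Aqp4 and −0.1583 to 0.03845 for Slc1a2, and in cKO against Hetero −0.06722 to 0.1641 for Gfap and −0.09719 to 0.164 for Aqp4. The cause was not tested. Where Hetero is left with 1 library, that library is assumed to vary like the other groups.

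With the replicate number as a block, 1 gene was called in each comparison with Loxp, Slc1a2 in cKO was at 0.008491 and Aqp4 in Hetero at −0.1013. The median of the astrocyte genes in Hetero against Loxp was −0.1722 under the block, with 10 of 10 below 0, Gfap at −0.1715, Slc1a3 at −0.197 and Gja1 at −0.1729. In cKO against Hetero, Gjb6 was at 0.1547 and Gja1, at 0.2844, was the highest. Same-numbered Loxp and cKO libraries correlated at 0.0952, 0.199, 0.0419 and 0.322 in their deviations from the group means, each above that with any other number, so the numbers are only a hint of pairing.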

Other observations

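For 6 of the 10 astrocyte genes, the highest Loxp library and the highest cKO library carry the same replicate number: number 2 for Aqp4, Aldh1l1, Slc1a3 and Gja1, and number 4 for Gjb6 and Fgfr3. Over all tested genes this was so for 33.8%. The labels do not say what a number stands for.

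Among genes of the same pathways, Shmt1, a folate enzyme like Aldh1l1, was at 3.34 ± 0.26 CPM in Loxp and 2.54 ± 0.44 CPM in cKO (SD over 4 libraries each), with −0.40 as the log2 fold change (SE 0.181) and an edgeR adjusted p of 1. Of the S100 family, 6 of 9 listed genes were tested, with 4 above 0 and 2 below in cKO and 1 above and 5 below in Hetero. The water channel Aqp1, a choroid plexus gene, was at 0.584 ± 0.23 CPM in Loxp and 4.46 ± 4.94 in Hetero (SD, n = 2), beside the 747 CPM of summed choroid plexus markers in Hetero 2.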
